A study of Homo sapiens with 3 samples.

Results

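NAP1L1, a human gene on the minus strand of chromosome 12, was read at its poly(A) ends in HEK293T, a long-established line derived from human embryonic kidney. Its ends were taken as all minus-strand positions with counts from chr12:76438200 to chr12:76478900, merged when they lay within 24 nt of a local maximum. This gave 71 ends of 780576 in the whole data set. The gene was chosen on its measured values: the end at chr12:76443347, called the picked end here, had the lowest ratio of the 30 min capture to input among well-counted sites. That ratio, and everything that shares its libraries, is therefore given as a description.

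There were 3 libraries, and each stood alone in its group (n = 1). In the 60 min capture, cells had grown with 4-thiouridine (4sU) for 60 min, and RNA carrying 4sU was captured. In the 30 min capture, the labelling lasted 30 min. The third library, called input, was that of the 30 min labelling, which the labels describe as steady-state RNA and whose treatment field reads none. 4sU is a nucleoside analogue that cells build into RNA as it is made, so capture enriches for newly made molecules. No genotype or other agent sets the libraries apart. The read-out was 2P-seq, which counts reads at the junction of an RNA and its poly(A) tail. Per the labels' protocols, the 4sU libraries skipped the first poly(A) selection, and no source used here says whether the input did.

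With 1 library a group there was no test across replicates. Intervals are 95% intervals of counting error alone. Amplified reads without molecular identifiers are not independent molecules, so the true uncertainty is wider. In bulk RNA, fewer NAP1L1 molecules in each cell and fewer cells that hold them cannot be told apart.

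NAP1L1 encodes nucleosome assembly protein 1-like 1, a histone chaperone. It binds dimers of histones H2A and H2B, keeps these basic proteins from binding nucleic acid at random, and hands them over for nucleosome assembly. It is a broadly expressed and abundant protein, typical of proliferating cells. An mRNA's 3′ end is made by cleavage and polyadenylation, and a gene with several poly(A) signals makes mRNAs that differ in their last stretch. In 4sU experiments, RNAs that turn over quickly form a larger part of new RNA than of steady-state RNA, and long-lived RNAs form a smaller part.

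NAP1L1 has also been listed among the 5′ TOP mRNAs, which start with a C and a run of pyrimidines and mostly encode ribosomal proteins and translation factors. The RefSeq promoter of the gene is printed to show its annotated start. It spans chr12:76084636-76084935 on the minus strand of GRCh38.p14, which is another build than that of the interval's numbering. Capitals mark the pyrimidines from the annotated start, after 250 bases of upstream sequence, to the next purine. The base before the capitals is a pyrimidine too.
NAP1L1 promoter: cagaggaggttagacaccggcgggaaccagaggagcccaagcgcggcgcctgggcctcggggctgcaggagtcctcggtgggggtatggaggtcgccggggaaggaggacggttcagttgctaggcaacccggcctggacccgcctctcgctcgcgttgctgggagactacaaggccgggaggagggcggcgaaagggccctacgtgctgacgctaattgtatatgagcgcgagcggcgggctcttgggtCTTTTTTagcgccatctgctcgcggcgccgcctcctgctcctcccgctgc
The run CTTTTTT, searched on both strands after the sequence had been seen, occurs in 7.88% of the 35116 RefSeq promoters of this length. It stands exactly at the annotated start in 6 of them, or 0.0171%, and the promoter of NAP1L1, from which the run was read, is among these. A start of C followed by at least 4 pyrimidines is found in 1429 promoters, or 4.07%. No count in these libraries bears on the start of the RNA, so the sequence is shown as context only.

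The libraries held 6151986 nuclear counts for the 60 min capture, 9652023 for the 30 min capture and 32768468 for input, and values are counts per 1000000 of these (CPM). A site counts as tested when its mean CPM over the 3 libraries was at least 10, and 10843 nuclear sites were. The mitochondrial genome took 31.1%, 31.8% and 7.46% of all counts and was kept out of the scaling. The median log2 ratio of tested sites was 0.063 for the 60 min capture to input and 0.37 for the 30 min capture to input. The 30 min ratio of the picked end is therefore also given relative to that median. All other ratios to input are given without the median taken off. The interval is the one of hg19 numbering, and no annotation of that build was used here, so no end was assigned to an exon, an intron or a UTR. Counts on chromosome 1 reach position 249223263, beyond 248937099, where the last gene that RefSeq places there in GRCh38 ends. A position beyond the last gene does not by itself settle the build. In the RefSeq table of GRCh38.p14, NAP1L1 is 48101 bases long, against 40701 nt for the interval, and its protein-coding neighbours are PHLDA1 on the lower and BBS10 on the higher coordinate side.

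Summed over the interval, NAP1L1 was far less represented in captured RNA than in input. The locus had 592 counts (96.2 CPM) in the 60 min capture, 613 counts (63.5 CPM) in the 30 min capture and 17560 counts (535.9 CPM) in input. The sum was 5.57-fold below input in the 60 min capture (5.13 to 6.05) and 8.44-fold below input in the 30 min capture (7.78 to 9.16). Between the labelling times it was 1.52-fold higher at 60 than at 30 min (1.35 to 1.70). Nearly all of these counts lay from the picked end downstream.

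The counts came from few ends. Of the 71 ends, 34 rested on 1 count in all. The 8 ends with at least 20 counts and at least 1% of the locus in a library are described one by one below. Of these 8, 5 reached 1% in input, while 76453600, 76441253 and 76439165 reached it in captured RNA alone, so the choice favoured ends that were high there. The other 63 held 5.07% of locus counts in the 60 min capture, 5.71% in the 30 min capture and 1.54% in input, and none of them had more than 33 counts over the 3 libraries. Only 3 ends passed the minimum for a tested site, and each of them was above 10 CPM in every library. The other 68 ends were not tested sites.

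**Figure D1:**
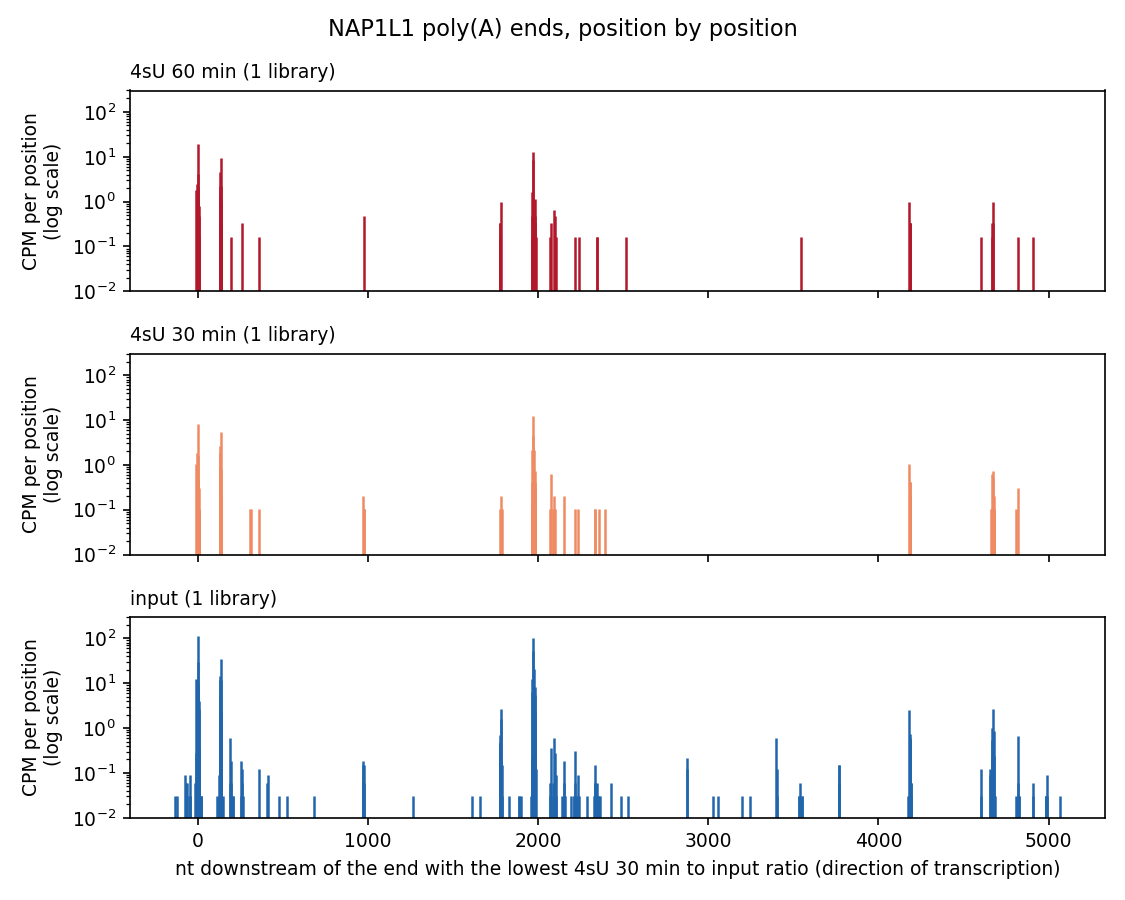
CPM at every position with counts (log scale, sticks) against the distance in nt downstream of the picked end, in the direction of transcription, for the 60 min capture, the 30 min capture and input (1 library each). The drawn stretch leaves out most of the 27 ends upstream of the picked end. The 3 ends that passed the minimum for a tested site have their tallest sticks at 0, 135 and 1969 nt in all 3 panels.

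The picked end at chr12:76443347 had 206 counts (33.5 CPM) in the 60 min capture, 143 counts (14.8 CPM) in the 30 min capture and 6507 counts (198.6 CPM) in input. It was 5.93-fold below input in the 60 min capture (5.16 to 6.85). It was 13.4-fold below input in the 30 min capture (11.4 to 15.9), the value that chose it, which is a log2 ratio of -3.74 and lies 4.12 below the median of tested sites. Its CPM was 2.26-fold higher at 60 than at 30 min (1.82 to 2.82), while the median tested site had a log2 ratio of -0.27 between these libraries. This last ratio rests on the same 30 min library as the choice of the end.

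A second main end, at chr12:76443212, lies 135 nt downstream. It had 134 counts (21.8 CPM) in the 60 min capture, 121 counts (12.5 CPM) in the 30 min capture and 2698 counts (82.3 CPM) in input. It was 3.78-fold below input in the 60 min capture (3.18 to 4.53) and 6.57-fold below input in the 30 min capture (5.47 to 7.95). So the smallest of the 3 main ends in input was also the least reduced of them in both captured libraries. At 60 min it was 1.74-fold higher than at 30 min (1.35 to 2.24).

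The third main end, at chr12:76441378 and 1969 nt downstream of the picked end, was the most counted NAP1L1 end in input. It had 170 counts (27.6 CPM) in the 60 min capture, 237 counts (24.6 CPM) in the 30 min capture and 7375 counts (225.1 CPM) in input. It was 8.14-fold below input in the 60 min capture (6.995 to 9.54) and 9.17-fold below input in the 30 min capture (8.05 to 10.5). Of the 3 main ends it was the lowest relative to input at 60 min. The picked end was the lowest at 30 min, the ratio that chose it, so no change of order is read. For the 76441378 end the ratio of 60 to 30 min was 1.13, with an interval that includes 1 (0.919 to 1.38). With the mitochondrial genome in the total it was 1.14 (0.929 to 1.39). It was 1.39 (1.13 to 1.69) with median-of-ratios scaling and 1.34 (1.10 to 1.64) with TMM, so whether the interval includes 1 depends on the scaling.

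The remaining described ends were minor, each with at most 229 counts in input. Of these, the end at chr12:76441564, 186 nt upstream of the 76441378 end, had 11 counts (1.79 CPM) in the 60 min capture, 4 counts (0.414 CPM) in the 30 min capture and 224 counts (6.84 CPM) in input. It was 3.82-fold below input in the 60 min capture (2.10 to 7.77) and 16.5-fold below input in the 30 min capture (6.35 to 61.1). Its 30 min ratio, from 4 counts, is thus below that of the picked end, but its interval includes the picked end's value. A mean of 3.01 CPM kept the 76441564 end out of the well-counted sites.

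The most downstream described ends were at chr12:76439165 and chr12:76438672, 4182 and 4675 nt from the picked end. The 76439165 end had 13 counts (2.11 CPM) in the 60 min capture, 22 counts (2.28 CPM) in the 30 min capture and 171 counts (5.22 CPM) in input. That was 2.47-fold lower than input at 60 min (1.41 to 4.73) and 2.29-fold lower at 30 min (1.46 to 3.75). The 76438672 end had 11 counts (1.79 CPM) in the 60 min capture, 26 counts (2.69 CPM) in the 30 min capture and 229 counts (6.99 CPM) in input. It was 3.91-fold lower than input at 60 min (2.14 to 7.94) and 2.59-fold lower at 30 min (1.73 to 4.06). Since 76439165 was described through its share of captured RNA, its smaller reduction is in part set by that choice, which the 76438672 end passed in input as well.

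Another pair of ends, both described through their share of captured RNA, had ratios to input whose intervals include 1. Ends with like counts in input and few in captured RNA, such as 76443154 below, were not described, so nothing is read from the level of this pair. The end at chr12:76441253, 125 nt downstream of the 76441378 end, had 11 counts (1.79 CPM) in the 60 min capture, 12 counts (1.24 CPM) in the 30 min capture and 55 counts (1.68 CPM) in input. Its ratios to input were 1.07 at 60 min (0.503 to 2.06) and 0.741 at 30 min (0.361 to 1.40). Farthest upstream of them, the end at chr12:76453600 lies 10253 nt upstream of the picked end. It had 6 counts (0.975 CPM) in the 60 min capture, 13 counts (1.35 CPM) in the 30 min capture and 31 counts (0.946 CPM) in input. Its ratios to input were 1.03 at 60 min (0.352 to 2.51) and 1.42 at 30 min (0.684 to 2.80), but 1.78 and 0.943 when positions were merged within 10 nt, so the order of the times turned with the merging window. All 4 intervals include 1 and are wide at these counts.

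Of the 8 described ends, 6 were at least 2-fold below input in the 60 min capture with an interval that excludes 1, and 0 were higher by the same rule. Among all tested sites 21.8% were lower at 60 min and 27.3% higher. In the 30 min capture the same 6 ends were lower and 0 were higher, beside 17.1% and 35.3% of all tested sites. The 8 ends are not all tested sites, and the 3 that are were lower at both times. The 30 min contrast chose the gene, and the 60 min contrast shares its input library, so nothing is read from these counts. Between 60 and 30 min, 2 of the 8 ends were at least 2-fold higher, the picked end and the 76441564 end, and 0 were lower. Only 3 of the 8 ends were tested sites, and of these 1, the picked end, was higher and 0 were lower. Among all tested sites 4.58% were higher and 14.0% lower. The picked end was chosen for a low 30 min value, and the 76441564 end had 4 counts there. Nothing is read from these counts either.

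**Figure D2:**
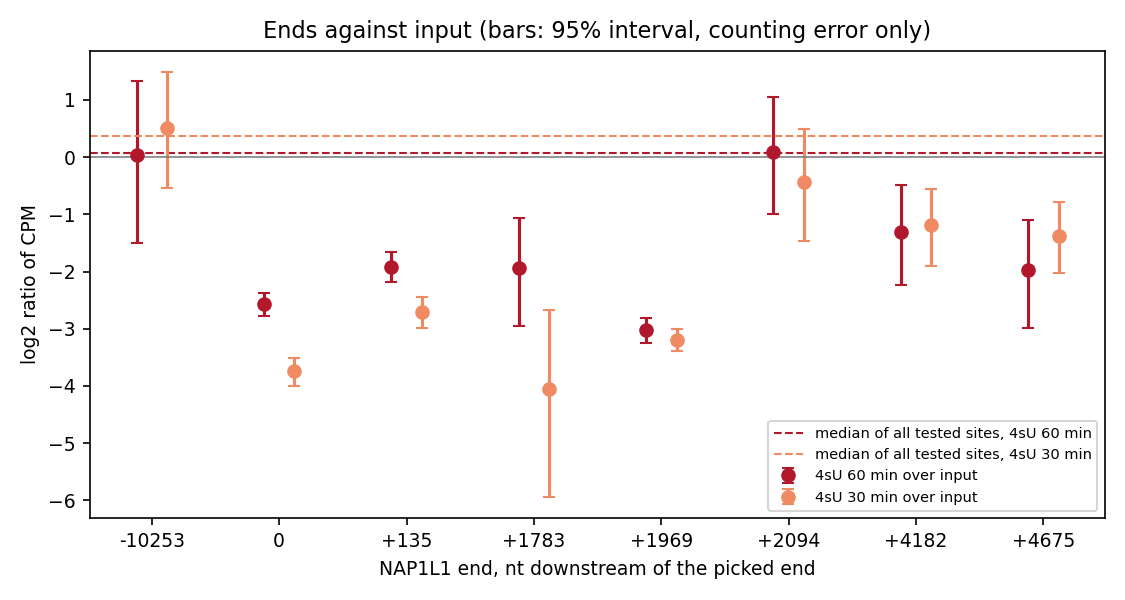
Log2 ratio of CPM to input at the 8 described NAP1L1 ends, placed from 5′ to 3′ by their distance in nt from the picked end, for the 60 min capture and the 30 min capture (1 library each). Bars are 95% intervals of counting error and dashed lines the medians of all tested sites, 0.063 at 60 min and 0.37 at 30 min; the ends at -10253 and 2094 nt lie near 0 and the other 6 lie below it.

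The ends can be ordered by their ratio to input, and neighbours in that order compared through the ratio of their ratios, which no scaling of libraries can move. At 60 min the order from the lowest was 76441378, 76443347, 76438672, 76441564, 76443212, 76439165, 76453600 and 76441253. There the picked end stood 1.37-fold above the 76441378 end (1.11 to 1.70), and the intervals of all further neighbours include 1. At 30 min the order was 76441564, 76443347, 76441378, 76443212, 76438672, 76439165, 76441253 and 76453600. The 76441564 end and the picked end could not be separated (1.23, 0.464 to 4.62). The 76441378 end stood 1.46-fold above the picked end (1.18 to 1.82). The 76443212 end stood 1.40-fold above the 76441378 end (1.11 to 1.75), and the 76438672 end 2.53-fold above the 76443212 end (1.56 to 3.99). The last 3 pairs of neighbours have intervals that include 1. The low place of the picked end at 30 min is in part set by its choice, so its gaps there are description only.

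Shares of the locus counts need no scaling between libraries. The picked end held 34.8% of locus counts in the 60 min capture (31.1 to 38.7), 23.3% in the 30 min capture (20.2 to 26.8) and 37.1% in input (36.3 to 37.8). At 30 min this was 13.7 points below the input (a difference of -13.7 points, -16.98 to -10.1), and at 60 min the difference was -2.26 points (-6.05 to 1.73). From 30 to 60 min the share was 11.5 points higher (6.35 to 16.5). The low share at 30 min is in part set by the choice of this end, and so is the rise from it. Shares sum to the whole, so those of the other ends carry this limit too.

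The other main ends moved differently. The 76441378 end held 28.7% in the 60 min capture (25.2 to 32.5), 38.7% in the 30 min capture (34.9 to 42.6) and 41.999% in input (41.3 to 42.7). Its share at 60 min differed from that at 30 min by -9.95 points (-15.2 to -4.61). The 76443212 end held 22.6% in the 60 min capture (19.4 to 26.2), 19.7% in the 30 min capture (16.8 to 23.1) and 15.4% in input (14.8 to 15.9). Its share was above that of input in both captured libraries, by 7.27 points at 60 min (4.04 to 10.9) and 4.37 points at 30 min (1.37 to 7.75).

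**Figure D3:**
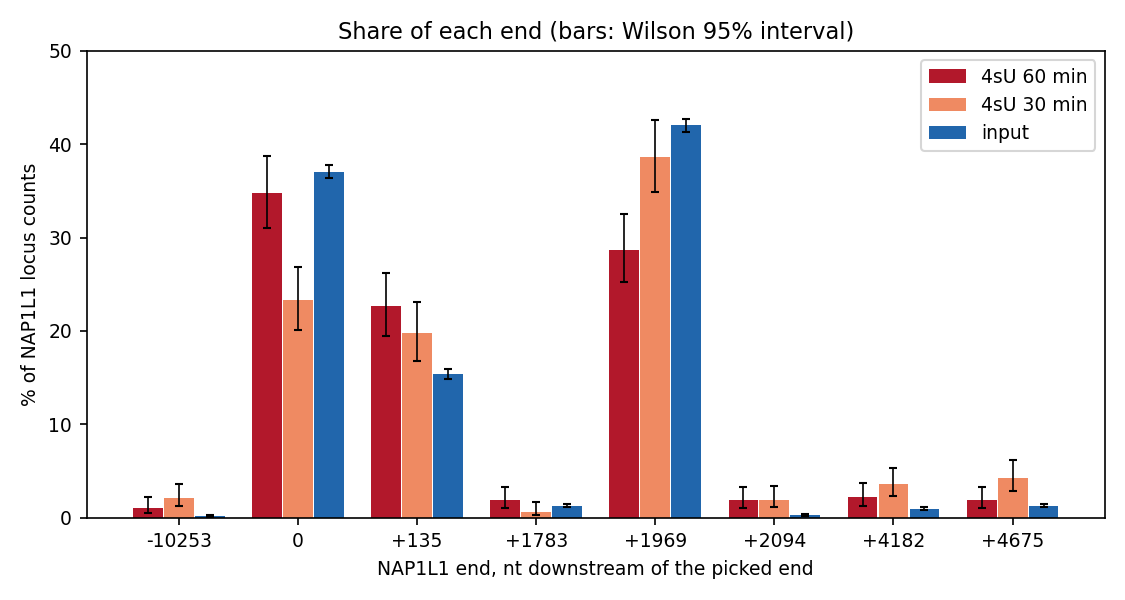
Percent of all NAP1L1 locus counts at each of the 8 described ends, placed by distance in nt from the picked end, for the 60 min capture, the 30 min capture and input (1 library each). Bars start at 0 and whiskers are Wilson 95% intervals; the picked end, at 0, has 34.8%, 23.3% and 37.1%, and the end at 1969 nt has 28.7%, 38.7% and 41.999%.

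Among the 3 main ends alone, the upstream pair at 76443347 and 76443212 held 66.7% of counts in the 60 min capture (340 of 510, 62.5 to 70.6), 52.7% in the 30 min capture (264 of 501, 48.3 to 57.0) and 55.5% in input (9205 of 16580, 54.8 to 56.3). The balance between the upstream pair and the 76441378 end was thus close to that of input at 30 min, with a difference of -2.82 points (-7.26 to 1.58). At 60 min the upstream pair was 11.1 points above input (6.88 to 15.2) and 13.97 points above 30 min (7.93 to 19.9). The pair holds the picked end, so its 30 min share and the rise from it are in part set by the choice of that end. Its differences from input share the input library with that choice. These balances are therefore description only. Within the pair the partners differed too. The ratio to input of the picked end was 1.57-fold below that of the 76443212 end at 60 min (1.25 to 1.97). At 30 min it was 2.04-fold below (1.58 to 2.63). The picked end was chosen for its low 30 min ratio, and the 60 min ratio shares its input. Both gaps are thus in part set by that choice, which the intervals do not allow for. The ratios of 60 to 30 min of these partners could not be separated (1.30, 0.927 to 1.82).

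The sum of the 68 ends below the minimum for a tested site held a larger part of the locus in captured RNA than in input. They held 13.9% of locus counts in the 60 min capture (11.3 to 16.9), 18.3% in the 30 min capture (15.4 to 21.5) and 5.58% in input (5.25 to 5.93). Their sum was 2.24-fold below input in the 60 min capture (1.79 to 2.85) and 2.58-fold below input in the 30 min capture (2.12 to 3.16). The sum of the 3 main ends was 6.10-fold lower at 60 min (5.59 to 6.68) and 9.75-fold lower at 30 min (8.92 to 10.7). Over all nuclear sites, those below the same minimum held 17.2% of counts in the 60 min capture, 18.1% in the 30 min capture and 10.04% in input. That shift toward low sites moved with the one at NAP1L1, and its part in it was not tested.

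Upstream of the picked end the interval was almost empty. Its 27 ends there held 20 counts in the 60 min capture, 29 in the 30 min capture and 60 in input. Their sum was 1.78-fold input at 60 min (1.01 to 2.99) and 1.64-fold input at 30 min (1.02 to 2.60), against 1.71 and 1.81 for all nuclear sites below the minimum for a tested site. Downstream of the picked end, by 3398 nt, the end at chr12:76439949 had 0 counts in each captured library and 25 in input. With 3 counts in a library as the floor for a 0, it was at least 1.56-fold lower at 60 min and at least 2.45-fold lower at 30 min. Another end, at chr12:76443154 and 193 nt downstream, had 1 count in the 60 min capture, 0 in the 30 min capture and 32 in input. It was at least 3.14-fold lower at 30 min by the same floor. Both are named for their few captured counts. The 76442373 end, also not described one by one, had 3 counts in the 60 min capture, 4 in the 30 min capture and 20 in input. The floor of 3 counts stands for 0.488 CPM in the 60 min capture, 0.311 CPM in the 30 min capture and 0.0916 CPM in input, so many minor ends seen in input could not be detected in captured RNA.

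Within the main ends, cleavage was spread over few neighbouring positions, and the highest position was the same in all 3 libraries. At the picked end 56.3% of counts in the 60 min capture lay at position 76443347 (49.5 to 62.9), 55.2% in the 30 min capture (47.1 to 63.2) and 57.4% in input (56.1 to 58.6). The standard deviation (SD) of its positions was 2.41 nt in the 60 min capture, 2.54 nt in the 30 min capture and 2.49 nt in input. Taken alone, position 76443347 was 6.04-fold lower than input at 60 min (5.02 to 7.33) and 13.9-fold lower at 30 min (11.1 to 17.6).

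The 76443212 end was the narrowest, with SDs of 1.44 nt in the 60 min capture, 1.41 nt in the 30 min capture and 1.501 nt in input. Its highest position held 43.3%, 43.8% and 41.6% of its counts in that order. The 76441378 end was the broadest of the main ends, with SDs of 4.42, 4.43 and 4.39 nt in the same order of libraries. Between libraries, these SDs differed by at most 0.125 nt at any main end.

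Of 14 positions with at least 5% of a main end in a library, 4 had intervals that lay apart between a pair of libraries. At position 76441372, 6 nt downstream of the maximum of the 76441378 end, lay 1.76% of that end's counts in the 60 min capture (3 of 170, 0.602 to 5.06). In the 30 min capture it held 8.86% (21 of 237, 5.87 to 13.2) and in input 9.11% (672 of 7375, 8.48 to 9.79). At position 76441377, 1 nt downstream of the maximum, the shares were 31.2% in the 60 min capture (24.7 to 38.5), 18.1% in the 30 min capture (13.8 to 23.5) and 23.3% in input (22.4 to 24.3). At the picked end, position 76443348, 1 nt upstream of the maximum, held 7.28% in the 60 min capture (4.46 to 11.7), 12.6% in the 30 min capture (8.11 to 19.0) and 5.79% in input (5.25 to 6.39). At the 76443212 end, position 76443211 held 10.4% in the 60 min capture (6.33 to 16.8), 6.61% in the 30 min capture (3.39 to 12.5) and 14.3% in input (13.0 to 15.6). These 4 positions were singled out after their values were seen.

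**Figure D4:**
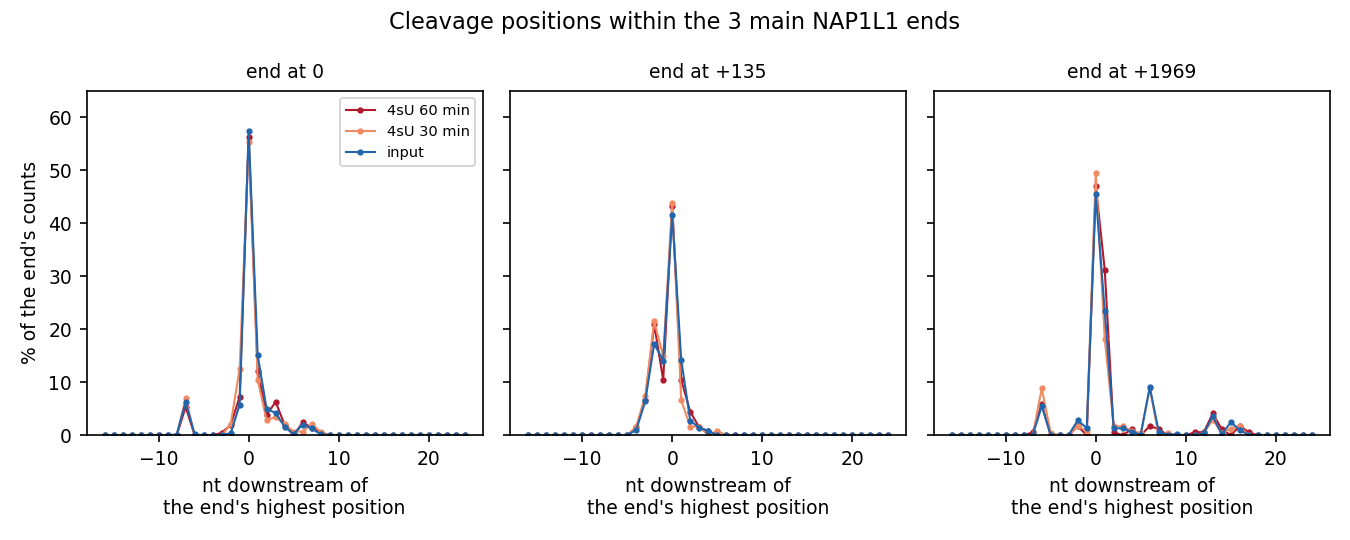
Percent of each main end's counts at each position, against nt downstream of the end's highest position, for the 60 min capture, the 30 min capture and input (1 library each); panels are the ends at 0, 135 and 1969 nt. The highest position is shared by the libraries in each panel; 6 nt downstream in the right panel the libraries part, with 1.76%, 8.86% and 9.11%.

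All 3 main ends ranked lower by level in both captured libraries than in input. The 76441378 end ranked 635 of the 10843 tested sites by CPM in input, the picked end 725 and the 76443212 end 1780. The picked end ranked 4131 in the 60 min capture and 8825 in the 30 min capture. The 76441378 end ranked 4867 and 6256, and the 76443212 end 5870 and 9481, in the same order of libraries.

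Ordered from the lowest ratio of the 60 min capture to input, the 76441378 end was at rank 34 of all 10843 tested sites, the picked end at 110 and the 76443212 end at 528. For the 30 min capture they were at ranks 19, 5 and 60. The picked end became the lowest only among sites that averaged 30 CPM or more, the level called well counted, which 4874 sites reached. The main ends reached that level through input, since none of them averaged 30 CPM over the captured libraries. Just behind it were the minus-strand sites chr11:118886421, 11.4-fold lower at 30 min (8.95 to 14.7), and chr3:107765927, 9.78-fold lower (7.84 to 12.4). The site chr14:92582470 on the minus strand followed at 9.17-fold (8.19 to 10.3), and the fifth was NAP1L1's own 76441378 end. After it came chr3:141645041 on the plus strand at 9.03-fold and chr6:166778410 on the minus strand at 8.70-fold. The interval of the next site overlaps that of the picked end, so its place at the bottom is not firm at this depth.

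**Figure D5:**
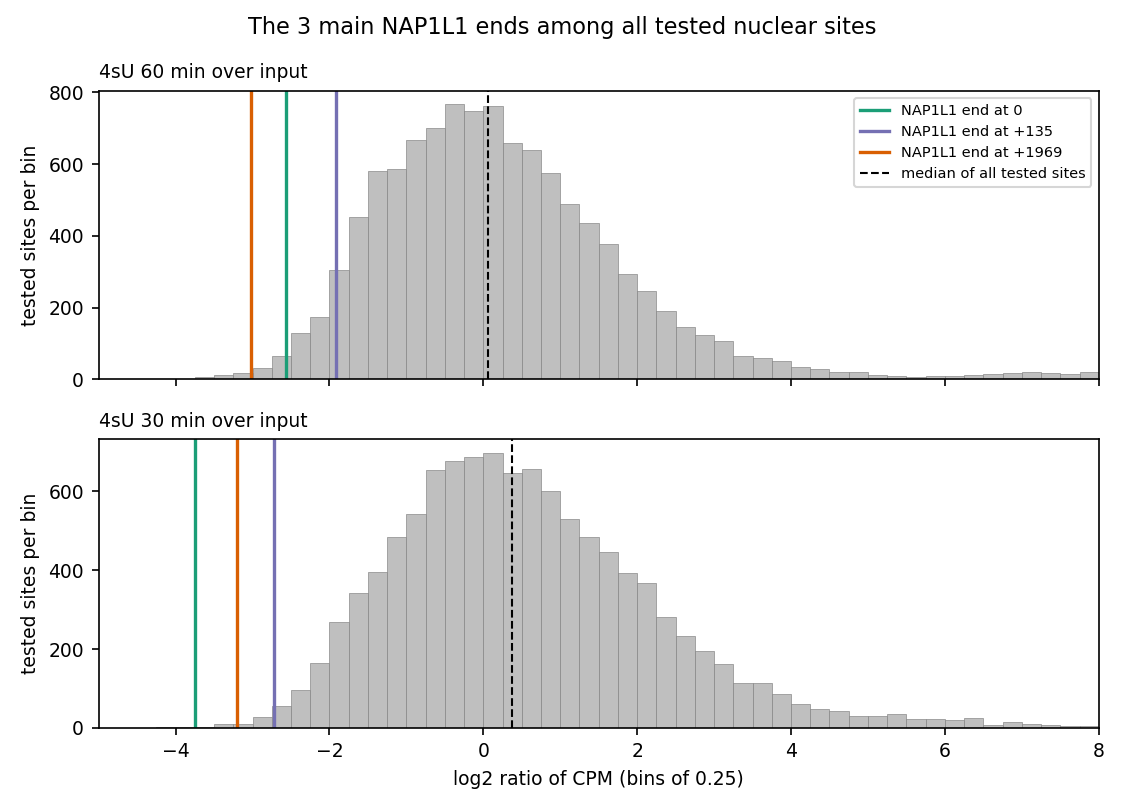
Number of tested nuclear sites by log2 ratio of CPM to input (bins of 0.25), for the 60 min capture and the 30 min capture; coloured lines are the 3 main NAP1L1 ends by distance in nt from the picked end and the dashed line is the median. All 3 lie in the left tail at both times, from -3.03 to -1.92 at 60 min and from -3.74 to -2.72 at 30 min; sites above 8 are outside the drawn range.

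The main NAP1L1 ends were low together, and other groups of neighbouring ends were examined for the same. Neighbouring tested sites on the same strand, no more than 2000 nt apart, were put in groups, and 293 groups had at least 3 sites. All sites were lower than input in 39 of these groups at 60 min (13.3%) and in 29 at 30 min (9.90%), and NAP1L1 was among them at both times. All sites were at least 4-fold lower in 1 group at 60 min, which was not NAP1L1, and in 1 group at 30 min, which was NAP1L1. Among the 1396 groups of at least 2 sites there were 8 such groups at 60 min and 14 at 30 min. The 30 min contrast chose the gene, so nothing is read from its place among them. Of single tested sites, 4.01% were at least 4-fold lower at 60 min and 3.4% at 30 min. Groups can join ends of different genes. The log2 ratios of the NAP1L1 group differed by 1.11 between its highest and lowest main end at 60 min and by 1.03 at 30 min. The median difference was 1.25 at 60 min and 1.13 at 30 min over groups of at least 3 sites, and 0.75 and 0.70 over groups of at least 2. Such a range grows with the number of sites, so no order is read from it.

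Sites most like the NAP1L1 ends were sought among the 4874 well-counted sites, by the distance between their 2 log2 ratios to input over the 3 libraries. Nearest to the picked end was chr11:118886421 on the minus strand, at a distance of 0.37 and with 69 counts in the 60 min capture, 69 in the 30 min capture and 2663 in input. It was 7.25-fold lower than input at 60 min and 11.4-fold lower at 30 min. The next were chr3:107765927 on the minus strand (0.54), chr3:141645041 on the plus strand (0.59), chr6:166778410 on the minus strand (0.70) and chr2:55772208 on the plus strand (0.70). Nearest to the 76441378 end was chr6:166778410, at 0.16, with 138 counts in the 60 min capture, 184 in the 30 min capture and 5436 in input. It was 7.40-fold lower at 60 min and 8.70-fold lower at 30 min. The next 4 lay at distances from 0.20 to 0.37. These sites were not assigned to genes.

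The opposite strand and the flanks carried almost nothing. On the plus strand the interval had 1 count in the 60 min capture, 0 in the 30 min capture and 8 in input. Nearly all counts in the interval were thus on the strand of the gene, from which alone the ends were taken. In the 10000 nt downstream of the interval there were 3, 6 and 2 counts in the same order, and none of the 10 positions there had more than 1 count in a library. In the 10000 nt upstream there was 1 count, in the 30 min capture. No well-counted end lay in either flank.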

How the data were processed

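The authors deposited raw read counts per genomic position and strand, with 1 table for each of the 3 libraries, without a header. The submitters' processing notes name cutadapt and Bowtie; their versions, the build and the handling of multiply mapping reads are not stated there. Per the labels' protocols, cDNA of 150 to 500 nt was sequenced.

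Positions were merged within 24 nt of the local maximum of summed counts. Counts were divided by nuclear totals. Ratios carry exact 95% Poisson intervals (from Clopper-Pearson limits), shares Wilson and their differences Newcombe intervals, and ratios of ratios conditional exact intervals. A site was called at 2-fold with an interval that excludes 1. Alternatives were other scalings (TMM from edgeR 4.0.16 in R 4.3.3), minimum levels, merging windows and interval widths. Scripts ran in Python 3.11.15 with numpy 2.4.6, pandas 2.3.3 and scipy 1.17.1, and were checked on simulated data.

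Members, lists and rules were chosen with earlier results of these data known. Ends described one by one had at least 20 counts and 1% of the locus in a library. The ends 76439949, 76443154 and 76442373 fell short of that share and were named as examples. Named sites elsewhere were the next lowest 5 and the 5 nearest in both ratios, at 30 CPM or more on average and 20 counts. The histone chaperone genes listed beforehand were not placed, since no annotation of the build was used here.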

Additional observations from a re-analysis of the deposited data

Results flagged for a closer look

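The end at chr12:76441253 lay on opposite sides of input at the labelling times, at 1.07 times input in the 60 min capture and 0.741 times input in the 30 min capture. The difference was not tested across samples, and the ratio of 60 to 30 min, 1.44, has an interval from 0.575 to 3.56. With TMM scaling its 60 min ratio was 0.992 and with chrM in the total 0.793, so its side at 60 min depends on the scaling. This end was described through its share of captured RNA. The 10000 nt downstream of the interval entered no locus ratio but those of the widened interval. This stretch held 6 counts in the 30 min capture and 2 in input, or 10.2 times the input level (1.82 to 103.2). It was flagged because that interval excludes 1. In the 60 min capture it held 3 counts, or 7.99 times input, with an interval that includes 1 (0.915 to 95.7).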

How the results depend on the processing

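No ratio of an end or of the locus sum whose interval excludes 1 changed sides under any alternative run, and 6 of the 8 ends were called lower than input at both times under all 4 scalings. With chrM in the total, the picked end's ratios to input were 0.126 at 60 min and 0.0550 at 30 min, and the locus sum's 0.134 and 0.0873. With median-of-ratios scaling the 30 min ratios were 0.0578 for the picked end and 0.0918 for the locus, and with TMM 0.0582 and 0.0925; the locus ratio of 60 to 30 min was 1.87 and 1.81. Under these last scalings 3 ends instead of 2 had a 60 to 30 min ratio of at least 2, the added one being 76443212. At its highest position alone, the picked end held 19.6% of the locus in the 60 min capture, 12.9% in the 30 min capture and 21.3% in input.

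Numbers of sites called moved more. With a mean CPM of at least 30, 1181 were higher and 1104 lower at 60 min than in input, 1463 and 996 at 30 min, and 188 and 466 at 60 against 30 min. With at least 20 counts in place of that minimum these were 17663 and 8455, 25350 and 6915, and 3557 and 8840, as more sites enter. With chrM in the total 2898 sites were lower at 30 min. Higher sites were 55.7% of calls at 60 min, 67.3% at 30 min and 24.6% at 60 against 30 min with nuclear CPM, against 38.2%, 50.2% and 25.9% with chrM in the total. They were 52.7%, 53.1% and 54.96% with median-of-ratios scaling (897 higher and 735 lower at 60 against 30 min) and 51.1%, 53.5% and 50.3% with TMM (822 and 811). Merging within 10 nt moved the 60 to 30 min ratio of the 76453600 end to 1.88 (0.724 with 24 nt), and gave 10 described ends in place of 8, and within 50 nt 8. Widening the interval by 5000 or 10000 nt downstream changed no locus ratio beyond its interval; the wider one was chosen after seeing the data. No paired analysis was possible because each group has 1 library.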
